A study of Mus musculus with 2 samples.

Results

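Egr1 to Egr4, Nr4a1 to Nr4a3, Ier2, Ier3 and Srf were followed as 10 immediate early genes and regulators in skin tumours induced by ultraviolet B (UVB) light. They were found by gene name among the non-control probes of 2 single-colour Agilent arrays, where 16 of 56605 probes carried one of the 10 names out of 37325 gene names. One RNA sample came from tumours of male P2ry6-/- mice and the other from tumours of male P2ry6+/+ (wild-type) mice, 1 array for each genotype. P2ry6 encodes a G protein-coupled receptor for the nucleotide UDP. Mice were 2 months old when irradiation began, at 180 mJ/cm2 for 10 weeks, and the dose then went up by 10 mJ/cm2 a week to 300 mJ/cm2 at week 22 and was held there until week 40. The allele that was deleted, and how many tumours or animals gave each RNA sample, are not given in the sources used here. With 1 array per genotype no test between genotypes was possible, so every value below is a description of these arrays.

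Immediate early genes are transcribed within minutes of a signal from already present transcription factors, before any new protein is made. In skin they are switched on by growth factors, wounding and UV light, largely through MAP kinases that act on serum response factor (SRF) and its partners and through the cAMP-responsive factor CREB. EGR proteins are zinc finger transcription factors, NR4A proteins are orphan nuclear receptors that bind DNA without a known natural ligand, and IER2 and IER3 are small proteins named as immediate early response genes. Most of their transcripts are short-lived.

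P2ry6 itself did not follow its label. Its level was 0.66 on the knockout-labelled array and −0.63 on the wild-type-labelled array (log2, relative to each array's 75th percentile), a difference of 1.29 ± 0.01 (SD, n = 2 probes). Where its probes lie relative to the deleted part of the gene is not known here. The arrays are therefore called by their labels, and every direction rests on them. Of the non-control spots 57.9% on the knockout-labelled and 57.8% on the wild-type-labelled array were well above background, and none was saturated on either array. Only technical error is available. The log2 difference had an SD of 0.12 among replicate spots of 1 probe (291 probes) and of 0.38 among different probes of 1 gene (6731 genes). Over all 19873 genes measured on both arrays it had an SD of 0.65 and a median of −0.06.

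Nr4a1 and Nr4a2 were the genes of this group that differed most, 6.67-fold and 6.88-fold lower on the knockout-labelled array. Ier3 and Egr3 were also past 2-fold lower, Egr3 only just: it lay between −0.98 and −0.84 in 6 of 9 alternative processings. Egr2 was the only one of the 10 that was higher on the knockout-labelled array. The remaining 5 genes, Egr1, Egr4, Nr4a3, Ier2 and Srf, lay below 0 by less than 2-fold, Egr1 with a sign that changed with the normalization. In all 4 of 10 were at least 2-fold lower, a count that includes Egr3, and 0 of 10 at least 2-fold higher, against 5.04% and 4.82% of all genes measured. The members' median difference was −0.56, and 9 of 10 were below 0, against 54.9% of all genes. All 10 genes had at least 1 probe above background on both arrays. Of their 16 probes 14 were above background on both, 1 on the wild-type-labelled array only and 1 on neither.

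**Figure D1:**
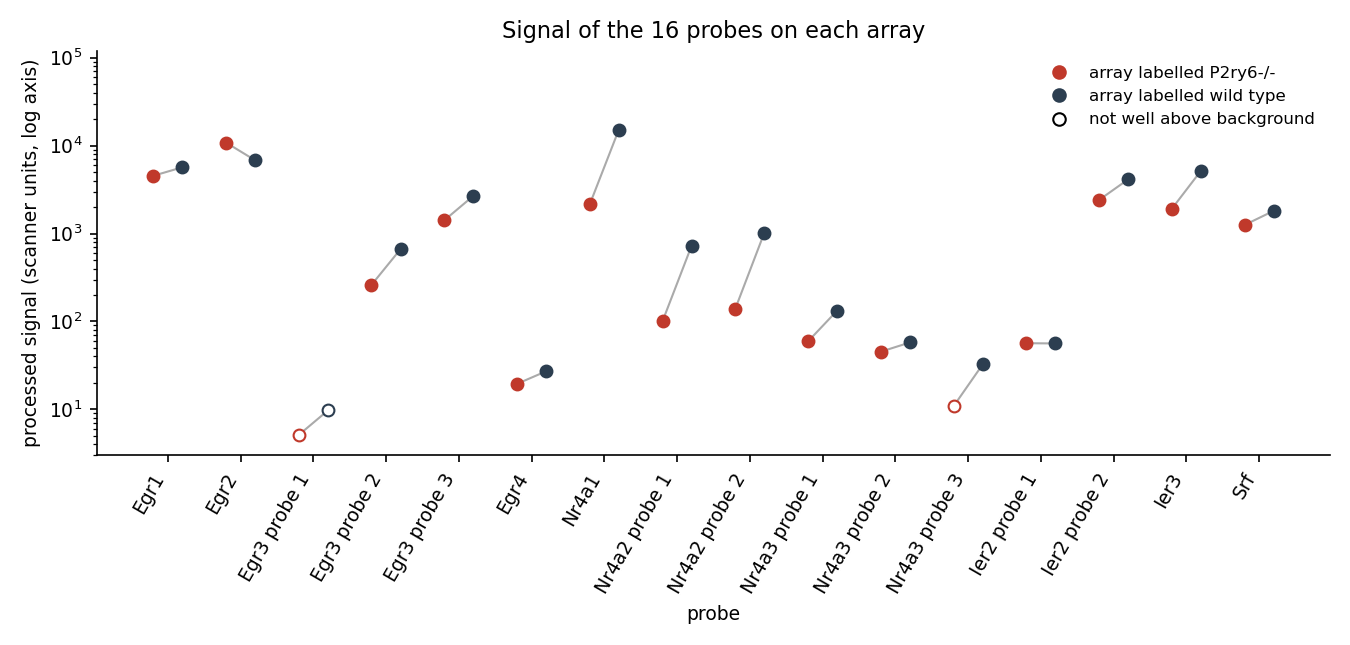
Processed signal in scanner units (log axis) of each of the 16 probes, with the knockout-labelled array left of the wild-type-labelled array and a line joining them; open points were not well above background. The signal was lower on the knockout-labelled array for 14 probes and higher for 2, namely the Egr2 probe and 1 dim probe of Ier2 (56.6 and 56.2).

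Promoter sequence is shown for the Nr4a family, for Egr2 and for Srf, whose product binds the promoters of many immediate early genes. Nr4a1, Nr4a2 and Egr2 lay at the extremes of the group, but Nr4a3 did not. RefSeq promoter windows (GRCm38.p6, 250 bases before to 50 after the start site) were matched by symbol and used for 7 of the 10 genes. These were Nr4a1, Nr4a2, Nr4a3, Egr2, Egr4, Ier3 and Srf. Those of Egr4 and Ier3 are not printed, and Ier3, which differed more than Nr4a3, matched none of the motifs given below. Egr3 and Ier2 had no window in the source, whereas Egr1 was left out by a filter on genome position, not by a failed match. Printed 5′ to 3′ on the strand of the gene are the 150 bases before the start site at chr15:101266696-101266845 (plus strand) for Nr4a1, chr2:57124004-57124153 (minus) for Nr4a2, chr4:48045155-48045304 (plus) for Nr4a3, chr10:67537719-67537868 (plus, 1 of 5 annotated starts) for Egr2 and chr17:46556163-46556312 (minus) for Srf. Capitals mark matches, on either strand, to the SRF-binding CArG box, to TGACG, the first 5 bases of the CREB site TGACGTCA, or to the EGR site GCGGGGGCG.
Nr4a1: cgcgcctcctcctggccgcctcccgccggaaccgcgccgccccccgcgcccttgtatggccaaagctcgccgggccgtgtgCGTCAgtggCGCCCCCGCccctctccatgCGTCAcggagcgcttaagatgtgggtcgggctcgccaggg
Nr4a2: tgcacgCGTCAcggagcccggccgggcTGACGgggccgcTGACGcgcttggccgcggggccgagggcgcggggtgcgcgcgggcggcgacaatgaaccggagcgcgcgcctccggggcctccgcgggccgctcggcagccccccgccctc
Nr4a3: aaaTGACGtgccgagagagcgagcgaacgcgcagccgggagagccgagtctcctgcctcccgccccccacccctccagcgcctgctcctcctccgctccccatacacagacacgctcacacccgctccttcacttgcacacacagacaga
Egr2: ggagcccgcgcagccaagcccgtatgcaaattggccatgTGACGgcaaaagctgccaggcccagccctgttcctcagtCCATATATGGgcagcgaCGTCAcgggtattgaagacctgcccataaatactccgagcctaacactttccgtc
Srf: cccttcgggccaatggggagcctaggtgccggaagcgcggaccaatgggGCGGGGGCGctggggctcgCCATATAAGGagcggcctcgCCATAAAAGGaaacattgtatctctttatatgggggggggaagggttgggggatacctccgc
The CArG box was found in the windows of Egr2 and Srf and in no other of the 7 genes, and 1.81% of all 27025 genes with a window had it. Egr1, which was left out, is not among the 7, so none of these motif counts covers it. Srf had 2 of them, at −82 to −73 and −62 to −53 from its start site, and the Egr2 window shown had 1, at −72 to −63. TGACG was found in 6 of the 7 genes, all but Ier3, against 23.0% of all genes. Nr4a1, Nr4a2 and Nr4a3 each held 4 matches to TGACG in their 300-base windows, a count reached by 76 of 32851 windows (0.231%), a comparison that was chosen after the matches were seen. The EGR site GCGGGGGCG was found in Nr4a1 and Srf (3.31% of all genes), and the alternative site GCGTGGGCG in 0 of 7 (0.707%). The full CREB site TGACGTCA, which contains TGACG on both strands, was found in 0 of 7 (2.03%), as were the NR4A monomer site AAAGGTCA (1.70%) and the AP-1 site TGACTCA (5.95%). These are matches of letters in short windows, and no binding was measured.

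The Nr4a family was led by 2 members that differed alike. Nr4a1, a nuclear receptor induced by growth factors, cAMP and T cell receptor signals, read 2151 signal units on the knockout-labelled array and 15228 on the wild-type-labelled array, from a probe at chromosome 15, 101105071 to 101105130 (mm9, plus strand). It was bright on both arrays, so background did not limit the value, and the difference was −2.74, or 6.67-fold lower. Nr4a2, a relative best known for its role in dopamine neurons, had 2 probes on the minus strand of chromosome 2 (mm9). At 56960000 to 56960059 the signal was 101 units on the knockout-labelled and 728 on the wild-type-labelled array, and at 56960699 to 56960758 it was 139 on the knockout-labelled and 1026 on the wild-type-labelled array. Both probes gave nearly the same difference, and the gene's was −2.78 ± 0.02 (SD, n = 2 probes), or 6.88-fold lower. Among the 19873 measured genes Nr4a2 ranked 59th and Nr4a1 62nd from the lowest difference.

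Nr4a3, the other member of the family, had dim probes and was less clear. Its probe on a curated RefSeq transcript at chromosome 4, 48064521 to 48064580 (mm9, plus strand), read 45.3 units on the knockout-labelled and 57.7 on the wild-type-labelled array, a difference of −0.26. Its probe on an Ensembl transcript at 48062977 to 48063036 read 59.4 on the knockout-labelled and 133 on the wild-type-labelled array, a difference of −1.08. The last of its 3 probes, which the array file places across 48080690 to 48083876, was not above background on the knockout-labelled array (10.9 units). It read 32.5 on the wild-type-labelled array. Set against the lowest signal above background on the knockout-labelled array, it was 1.76-fold lower. Its spot error was 0.60 log2 units, so this bound is rough. All 3 probes were lower on the knockout-labelled array, but by amounts that differ by more than the usual spread between probes. The gene's difference was −0.67 ± 0.58 (SD, n = 2 probes), or 1.59-fold lower. The difference of Nr4a1 minus that of Nr4a3 was −2.07, a gap that a single scaling factor per array cannot change, and it lay between −2.47 and −1.66 over the alternative processings.

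**Figure D2:**
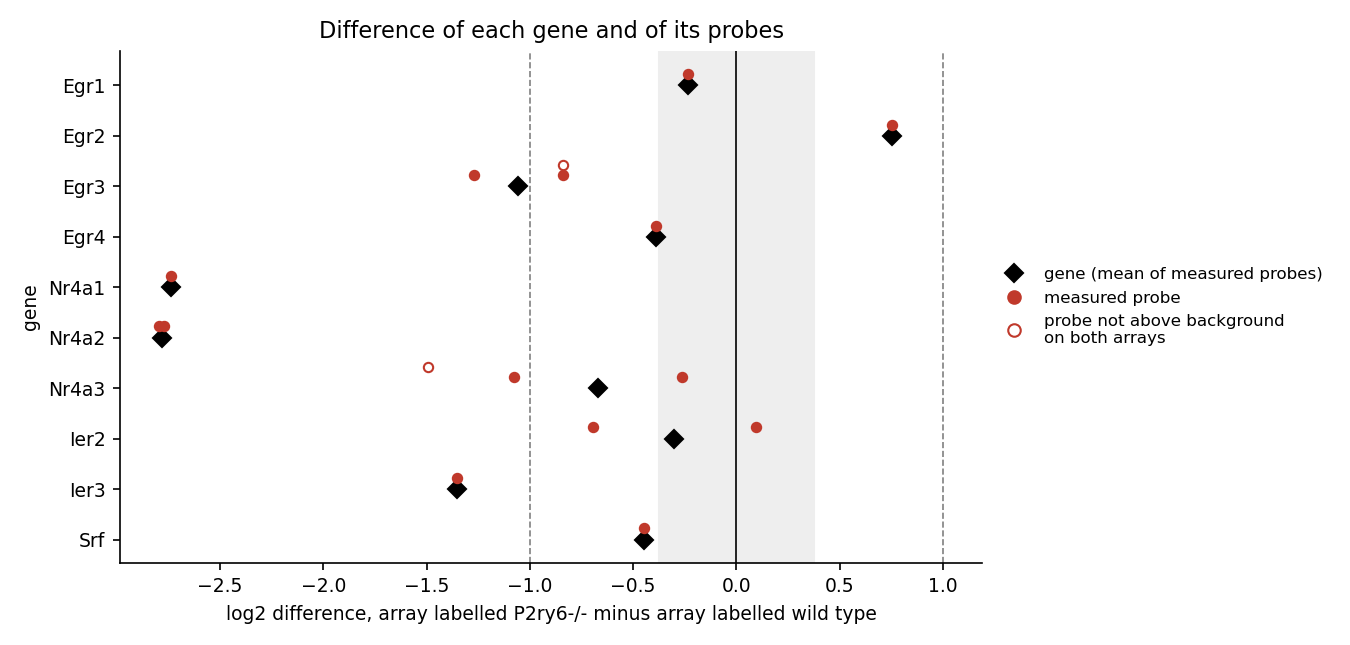
Log2 difference, knockout-labelled minus wild-type-labelled, for each of the 10 genes (diamonds) and their probes (circles, open where not above background on both arrays). Dashed lines mark 2-fold and the grey band ± 0.38, the SD between probes of a gene; the probes of Nr4a2 coincide at −2.78, those of Nr4a3 and Ier2 spread widely, and Egr2 alone lies to the right at 0.75.

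The 4 Egr genes did not differ alike. Egr2, a zinc finger factor with roles in myelinating Schwann cells, lymphocytes and the hair follicle, read 10837 units on the knockout-labelled array and 6817 on the wild-type-labelled array (chromosome 10, 67004758 to 67004817, mm9, plus strand). Its difference of 0.75 (1.69-fold higher) ranked 1750th from the highest of all genes. Egr3, which acts downstream of antigen and growth factor receptors, had 2 probes above background, on the plus strand of chromosome 14 (mm9). At 70481979 to 70482038 the signal was 261 units on the knockout-labelled and 666 on the wild-type-labelled array, and at 70482361 to 70482420 it was 1412 on the knockout-labelled and 2683 on the wild-type-labelled array. Both were lower on the knockout-labelled array, with differences of −1.27 and −0.84. The gene's difference was −1.06 ± 0.30 (SD, n = 2 probes), or 2.08-fold lower, so 1 of its measured probes alone would not pass 2-fold. The remaining probe, at 70478827 to 70478886, was not above background on either array.

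Egr1, the most widely studied of the family and a standard marker of MAP kinase signalling, read 4537 units on the knockout-labelled array and 5669 on the wild-type-labelled array (chromosome 18, 35024395 to 35024454, mm9, plus strand). The difference of −0.24 was smaller than the SD between probes of a gene, and it became 0.02 under quantile normalization and 0.03 with the authors' deposited values, so no direction is given for Egr1. Egr4, known mainly from neurons and germ cells, read 19.5 units on the knockout-labelled and 27.1 on the wild-type-labelled array (chromosome 6, 85461153 to 85461212, mm9, minus strand). It was barely above background, and its difference of −0.39 compares with a spot error of the same size (0.39, from the scanner software's error model). Egr2 and Egr3 were 1.81 log2 units apart in their differences (1.59 to 2.03 over the alternatives), and Egr2 and Egr1 0.99 (0.99 to 1.05). The 4 genes thus spanned 2.08-fold lower to 1.69-fold higher. A range over 4 genes is not the same measure as an SD, which was 0.38 between probes of a gene and 0.65 over all measured genes.

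Ier3, an anti-apoptotic regulator induced by NF-kB, p53 and growth factors, read 1914 units on the knockout-labelled array and 5182 on the wild-type-labelled array (chromosome 17, 35959528 to 35959587, mm9, plus strand). Its difference was −1.35, or 2.55-fold lower, and it ranked 458th from the lowest. Ier2, a nuclear protein of little-known function, had 2 probes that disagreed. The probe on the curated transcript, at chromosome 8, 87185211 to 87185245 (mm9, minus strand), read 2409 units on the knockout-labelled and 4139 on the wild-type-labelled array, a difference of −0.70, whereas a probe on a cDNA clone, at 87183623 to 87183681, read 56.6 on the knockout-labelled and 56.2 on the wild-type-labelled array, a difference of 0.09. Their mean of −0.30 ± 0.56 (SD, n = 2 probes) hides this split, and the bright probe alone gives 1.62-fold lower.

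Srf encodes the factor that, with ternary complex factors of the ELK family, drives immediate early genes and, with myocardin-related factors, drives genes of the actin cytoskeleton. It read 1252 units on the knockout-labelled array and 1812 on the wild-type-labelled array (chromosome 17, 46683788 to 46683795, mm9, minus strand), a difference of −0.45 (1.36-fold lower). Its partners were all less than 2-fold apart: Mrtfa differed by 0.11, Mrtfb by 0.44 ± 0.49 (SD, n = 3 probes), Elk1 by −0.09, Elk3 by −0.05 and Elk4 by 0.28 ± 0.43 (SD, n = 3 probes), and Myocd was above background on neither array. Of 14 cytoskeletal targets of SRF, 5 were higher by 2-fold or more on the knockout-labelled array and 0 lower, with a median of 0.58. Tagln (1.81), the myosin light chain gene Myl9 (1.72), the focal adhesion gene Tgfb1i1 (1.67) and smooth muscle actin, Acta2 (1.38 ± 0.90, SD, n = 3 probes), led them. Several of these targets also mark smooth muscle cells and activated fibroblasts. In tissue RNA a change in the number of cells of a type and a change in RNA per cell cannot be told apart.

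**Figure D3:**
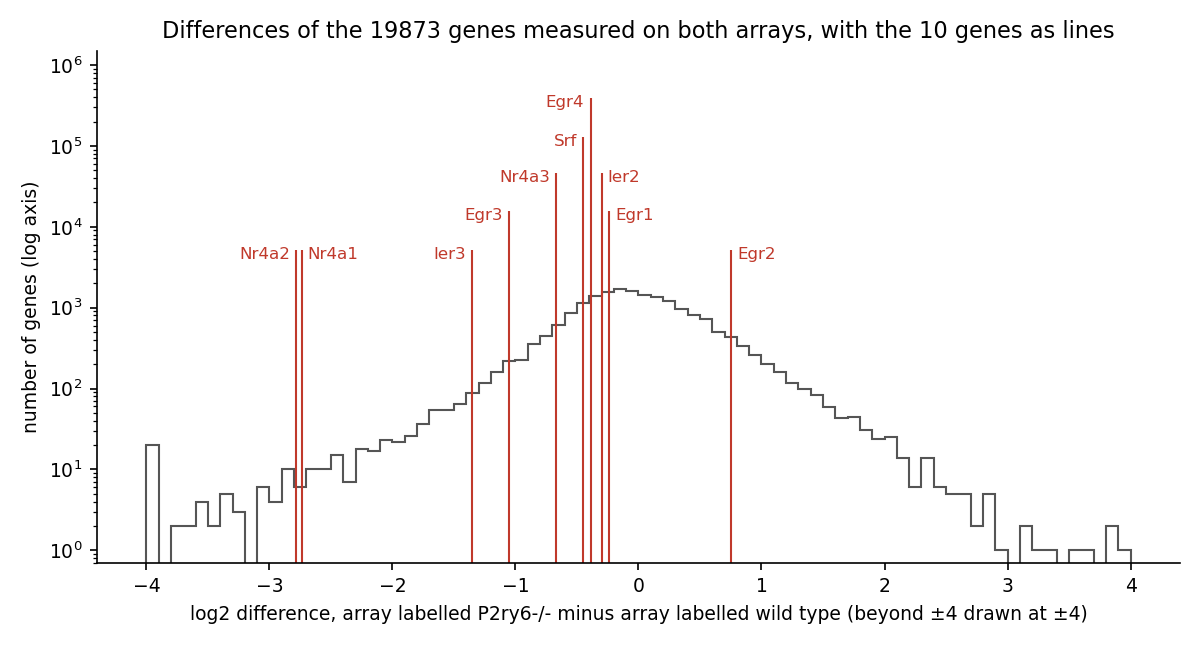
Number of genes (log axis) by log2 difference, knockout-labelled minus wild-type-labelled, for the 19873 genes measured on both arrays, with the 10 genes as labelled lines. Nr4a1 and Nr4a2 stand in the lower tail, Ier3 and Egr3 on its shoulder, Egr2 on the upper side, and the others near the centre.

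The share of genes past 2-fold varied with brightness, so the 10 genes were also placed among 4 equal groups of measured genes ordered by mean level, which depends on the probe as well as on the RNA. The brightest group held 5 of them, Egr1, Egr2, Nr4a1, Ier3 and Srf, and there 5.60% of genes were past 2-fold lower and 1.97% past 2-fold higher. The next group held Egr3, Nr4a2 and Ier2, with 4.69% lower and 3.42% higher. The group after it held 0 of the 10 (5.29% lower, 6.12% higher), and the dimmest held Egr4 and Nr4a3 (4.59% lower, 7.75% higher). All 4 genes past 2-fold lower were in the brighter 2 of these groups. From the brightest to the dimmest group, the median difference of all genes was −0.22, −0.07, 0.04 and 0.08. Egr1, at −0.24, thus lay close to the median of its own group.

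Of the 8 AP-1 subunit genes, whose products pair as the AP-1 factor, 6 were lower by 2-fold or more on the knockout-labelled array and 0 higher, with a median of −1.62. Fosb differed by −3.28, Atf3 by −2.49, Fos by −2.36, Fosl1 by −2.06, Jund by −1.17 and Junb by −1.06, and Jun (−0.83) and Fosl2 (−0.03) by less than 2-fold. Fos, like Egr1 a classical target of SRF, read 2619 units on the knockout-labelled and 14300 on the wild-type-labelled array, while Egr1 differed little. Among 29 further genes of the immediate early class, 9 were past 2-fold lower and 0 past 2-fold higher (median −0.51), and 24 were below 0. The cytoskeletal protein gene Arc (−2.16), the MAP kinase phosphatase gene Dusp1 (−2.06), the mRNA decay factor gene Zfp36 (−1.60) and the nuclear protein gene Csrnp1 (−1.58) led these. Of those 29 genes, the nearest to the median of the 10 genes were Klf10 (−0.51), Myc (−0.50 ± 0.19, SD, n = 2 probes) and Maff (−0.50), at 0.04, 0.06 and 0.06 log2 units from it. With 2 arrays that distance is the whole measure of likeness, and genes outside the list were not considered for it.

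Of the listed genes that act with or below the EGR factors, those measured on both arrays did not differ by 2-fold. The corepressor gene Nab2, itself induced by EGR proteins, differed by −0.09, and no probe was named Nab1. Of 7 genes described as EGR1 targets, 6 were measured and 0 were past 2-fold either way, with a median of 0.27. The tissue factor gene F3 differed by −0.74 and Tgfb1 by 0.69 ± 0.33 (SD, n = 2 probes). The growth factor gene Pdgfa differed by 0.57 ± 0.17 (SD, n = 2 probes) and Pdgfb by 0.55 ± 0.49 (SD, n = 2 probes). Fgf2 was above background on the knockout-labelled array only.

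**Figure D4:**
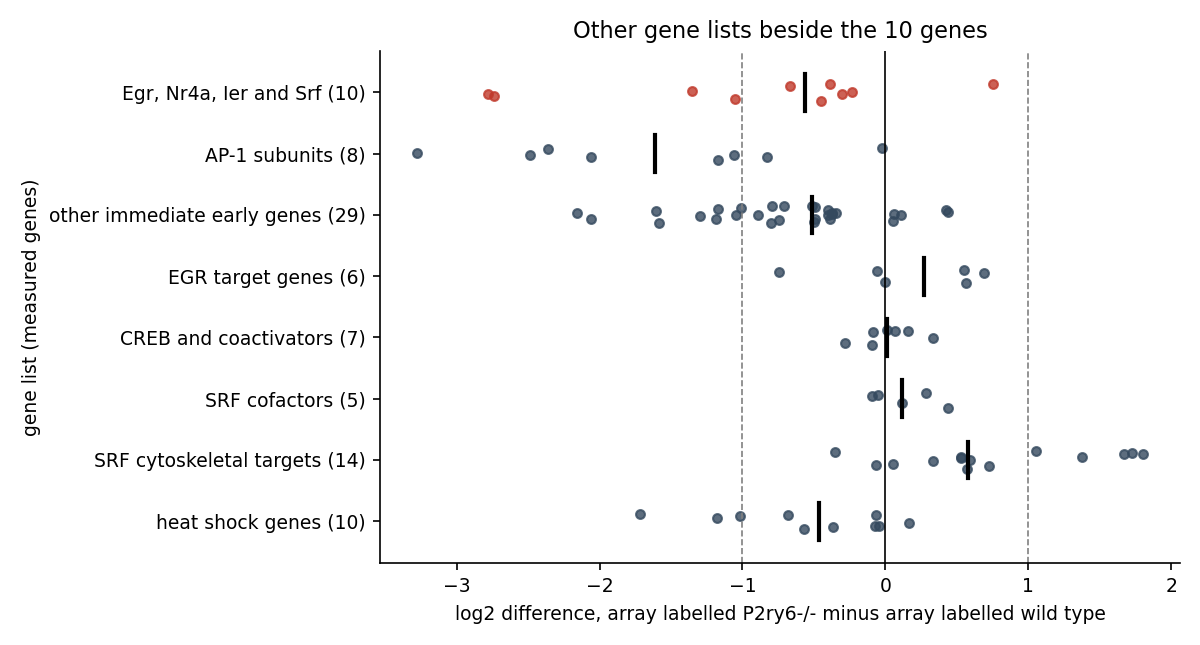
Log2 difference, knockout-labelled minus wild-type-labelled, of each measured gene of 8 lists (number measured in brackets), with the list's median as a black bar and dashed lines at 2-fold. The AP-1 list (median −1.62) lies furthest left, the 10 genes (−0.56), the other immediate early genes (−0.51) and the heat shock genes (−0.47) lie left of 0, and the cytoskeletal targets of SRF (0.58) lie right.

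Heat shock genes and markers of several cell types differed in the same samples. Of 10 heat shock genes 3 were past 2-fold lower on the knockout-labelled array and 0 higher, with a median of −0.47 and a summed level of 286 on the knockout-labelled and 489 on the wild-type-labelled array, in multiples of the array's 75th percentile. The inducible chaperone genes Hspa1a (−1.71) and Hspa1b (−1.18), which are near-identical copies that probes may not separate, Hspb1 (−1.02) and Hsph1 (−0.68) led them. Of 10 sebaceous gland markers 9 were measured, and all 9 were past 2-fold lower, with a summed level of 33.6 on the knockout-labelled and 262 on the wild-type-labelled array, led by Fa2h (−7.06), Awat1 (−6.77), Elovl3 (−6.65) and Dgat2l6 (−6.39). Of 9 suprabasal keratinocyte markers 5 were past 2-fold lower and 0 higher, with a summed level of 848 on the knockout-labelled and 1650 on the wild-type-labelled array, led by Casp14 (−1.85), Dsg1a (−1.66), Krt1 (−1.62) and Krt10 (−1.37). Of 7 measured mast cell markers 4 were past 2-fold lower and 1 higher (summed level 7.16 on the knockout-labelled and 13.2 on the wild-type-labelled array), with Mcpt4 at −2.53, Cma1 at −2.47, Cpa3 at −2.22 and Fcer1a at −1.07. The other 3 were above 0, Hdc at 1.03 ± 0.61 (SD, n = 2 probes), Kit at 0.69 ± 0.63 (SD, n = 2 probes) and Tpsb2 at 0.19, while Ms4a2 exceeded background only on the wild-type-labelled array. Of 10 macrophage markers 5 were past 2-fold higher and 1 lower (summed level 22.4 on the knockout-labelled and 11.4 on the wild-type-labelled array), with Cx3cr1 at 2.78, Fcgr1 at 1.71, Mertk at 1.35 and C1qb at 1.28. The 1 past 2-fold lower was Mrc1, at −1.07, the only one of these markers below 0. The part of these cells or of heat shock in the differences of the 10 genes was not tested.

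Markers of the basal epidermis, connective tissue, vessels and T cells were closer to level. Of 8 basal keratinocyte markers 1 was at least 2-fold higher and 0 lower (summed level 1371 on the knockout-labelled and 1003 on the wild-type-labelled array), with Krt5 at 1.66, Dst at 0.54 ± 0.22 (SD, n = 5 probes), Trp63 at 0.48 ± 0.19 (SD, n = 4 probes) and Col17a1 at −0.41. Of 8 fibroblast markers 1 was past 2-fold higher and 0 lower (summed level 77.0 on the knockout-labelled and 76.1 on the wild-type-labelled array), with Dpt at 1.32, Pdgfra at 0.58, Dcn at −0.50 and Pdgfrb at 0.47. Of 8 endothelial markers 0 were past 2-fold either way (summed level 28.1 on the knockout-labelled and 18.4 on the wild-type-labelled array), with Egfl7 at 0.69, Emcn at 0.68, Vwf at 0.67 ± 0.25 (SD, n = 3 probes) and Kdr at 0.57. Of 6 measured T cell markers 0 were past 2-fold higher and 1 lower (summed level 3.26 on the knockout-labelled and 3.71 on the wild-type-labelled array), namely Cd2 at −1.29, with Cd3d at −0.43, Lck at 0.18 and Cd3g at −0.13, and Cd8a was above background on the knockout-labelled array only. Krt14, another basal keratinocyte marker, read 245396 units on the knockout-labelled and 257780 on the wild-type-labelled array. Its difference of 0.01 was the smallest of the 8 basal markers, against 1.66 for Krt5.

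**Figure D5:**
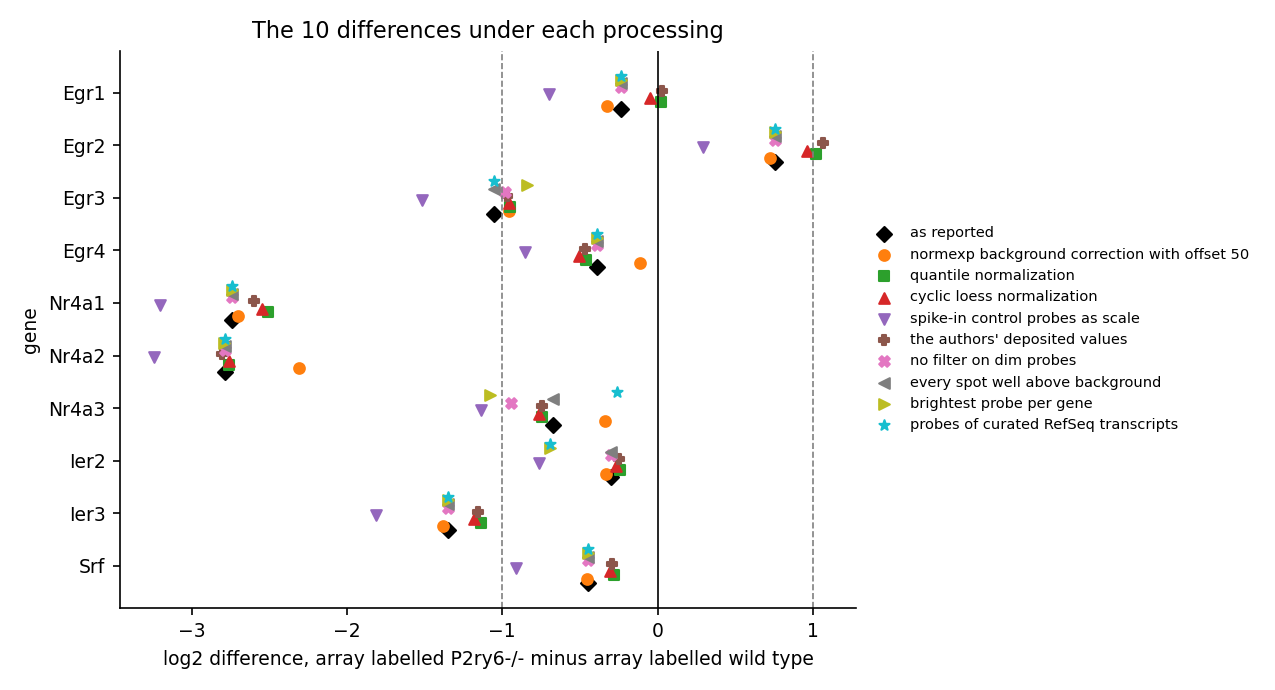
Log2 difference, knockout-labelled minus wild-type-labelled, of each of the 10 genes as reported (black diamonds) and under 9 other processings, with dashed lines at 2-fold. Nr4a1 and Nr4a2 stay at or below −2.31 throughout, Egr2 stays above 0, and Egr1 is the only gene with points on both sides of 0.

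Across these 9 processings Nr4a1 ranged between −3.20 and −2.51, Nr4a2 between −3.25 and −2.31, and Ier3 between −1.82 and −1.14, all past 2-fold in each. Several of the 9 used the same probes as reported. They returned the reported value for these genes and so show nothing about stability. Egr2 ranged between 0.29 and 1.06, above 0 in each and past 2-fold under quantile normalization (1.02) and with the authors' deposited values (1.06). Egr3 ranged between −1.52 and −0.84 and was under 2-fold in 6 of the 9. It stayed past 2-fold only on the spike-in scale (−1.52), which moves every gene lower, and where the probes used were those reported.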

How the data were processed

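Total RNA of 2 tumour samples was labelled with Cy3 from 0.2 µg and hybridised to single-colour Agilent arrays, per the labels' protocols. The deposited intensity values are spot signals that the authors extracted with Agilent Feature Extraction 10.7.1.1, per the submitters' processing notes. Per the file headers, the software's spatial and multiplicative detrending and its surrogates for dim spots were switched on and its background correction off. A second deposited table holds log2 values that follow these signals (r = 0.9997 on the knockout-labelled and 0.9999 on the wild-type-labelled array, over 56594 probes) and share 1 distribution (median 4.96), so they appear quantile normalized; the sources used here do not say how the table was made.

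Spots marked as outliers were left out (105 on the knockout-labelled and 102 on the wild-type-labelled array). For each probe, log2 of the processed signal was taken relative to the 75th percentile of non-control probes on its array. A gene's value was the mean over probes of which most spots were well above background on both arrays, and its difference was the knockout-labelled minus the wild-type-labelled value, called at 2-fold (1 log2 unit). A probe above background on 1 array was bounded by the other array's lowest signal above background or the dim probe's own, whichever was higher. Groups by brightness and summed levels of a list combine different probes, whose signals also depend on the probe itself. A summed level is carried mostly by the brightest genes of its list, as by Krt14 and Krt5 for the basal markers, and does not describe the list as a whole. Names were updated through RefSeq accessions of the assembly GRCm38.p6, and probe positions are on mm9 per the file headers, where the Srf and Ier2 probes of curated transcripts have partial spans of 8 and 35 bases. Both arrays lay on 1 slide in 1 scan. Exon and UTR annotation of the probes was not used here. The summary was tested on simulated data. The 10 genes, the gene lists, the naming rule (all of the 10, the AP-1, corepressor, NR4A partner and SRF cofactor lists in full, the 4 greatest differences of each other list, the 3 nearest genes, P2ry6) and the alternatives were chosen with earlier results of these data known, and 1 alternative, curated RefSeq probes alone, was added after the data were seen. Krt14, Mrc1, the mast cell markers above 0 and the smaller differences of the CREB list were named beyond the naming rule. Python 3.11.15, R 4.3.3 and limma 3.58.1 were used. The number of arrays limits the precision.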

Additional observations from a re-analysis of the deposited data

How the results depend on the processing

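The alternatives were normexp background correction (offset 50), quantile and cyclic loess normalization, the spike-in control probes as scale, the authors' deposited values, no filter on dim probes, all spots above background, the brightest probe per gene, and, chosen after seeing the data, curated RefSeq probes alone. Of the 90 values that these 9 gave for the 10 genes, 32 equal the reported ones because the probes used were the same, and so show nothing about stability. Of the other 58, 43 lay within 0.38 log2 units of the reported ones and 15 moved by more, 10 of them on the spike-in scale. In 0 cases did a 2-fold difference change sign. Egr1 crossed 0, to 0.02 under quantile normalization and 0.03 with the authors' values. The count of genes at least 2-fold lower ranged from 3 to 5, and Egr3 was under 2-fold in 6 of 9. The count at least 2-fold higher was 1 (Egr2) in place of 0 under quantile normalization and with the authors' values. The median of the 10 genes was −1.02 on the spike-in scale, which moves every gene by −0.46, so the median lies 0.50 below that of all genes as before, and between −0.77 and −0.40 otherwise. On the spike-in scale 3127 genes were at least 2-fold lower and 320 higher, against 1002 and 957 as reported and 578 and 368 under normexp. Without the filter on dim probes the median of all genes was 0.05, 0.11 above the reported one. Nr4a3 was −1.08 from its brightest probe and −0.26 from its measured curated probe, and Ier2 −0.70 from either choice. Signals near background limit Egr4 and Nr4a3. The size of the Nr4a2 difference also depends on background correction and its offset: it was −2.31 under normexp against −2.78 as reported. Normexp here adds 50 units to each signal, and Nr4a2 averaged only 118 units on the knockout-labelled array. The parts of the correction and of the offset were not separated. No paired analysis was possible because each genotype has 1 array. No replicate could be left out for the same reason.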

Other observations

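Regulators upstream of the Nr4a genes and partners of their products differed little between the arrays. Of 7 genes for CREB, its relatives and its coactivators, 0 were at least 2-fold apart, with a median of 0.01 (knockout-labelled minus wild-type-labelled) and values from Crem (−0.28 ± 0.47, SD, n = 3 probes), which encodes both activators and repressors, to the acetyltransferase gene Crebbp (0.33 ± 0.58, SD, n = 3 probes). Between them lay the coactivator genes Crtc1 (0.16), Crtc2 (0.07) and Crtc3 (0.01), and Creb1 (−0.09) and Atf1 (−0.09). The retinoid X receptors pair with NR4A1 and NR4A2: Rxra differed by −0.16 ± 0.20 (SD, n = 2 probes) and Rxrb by 0.13 ± 0.27 (SD, n = 3 probes), and Rxrg was above background on neither array. mRNA level does not measure the phosphorylation that switches CREB on, which these arrays do not record.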
